A study of Bos taurus with 6 samples.

Results

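NEDD8 and the enzymes that attach it to and remove it from other proteins were examined in testes of Wandong cattle before and after sexual maturity. The genes were taken from the deposited table of genes by symbol: NEDD8, UBA3, NAE1, UBE2M, UBE2F, SENP8 and COPS5. Of these 7 symbols, 6 have a row each, out of 47249 rows in all, and all 6 passed the filter on low values. No row carries the symbol SENP8, so no value is given for it. Total RNA was extracted from untreated testes of 3 immature calves (aged 3 ± 0.24 months) and of 3 andrologically mature bulls (aged 3 ± 0.014 years), freed of ribosomal RNA and sequenced with 1 library per animal. The values are FPKM, fragment counts scaled by transcript length and by the mapped fragments of the library. Where 3 values are given for a group, they follow the replicate numbers. The paper gives the reads per library, but no counts per gene accompany the values. The number of fragments behind a value is thus not given, and the spread between animals serves as its error.

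NEDD8 is a small protein related to ubiquitin that is joined to lysines of other proteins, above all to the cullins. Its attachment runs through a cascade. A heterodimer of NAE1 and UBA3 activates it, UBE2M or UBE2F carries it, and a ligase passes it to the cullin. Neddylated cullins form active ubiquitin ligases, and the COP9 signalosome, whose catalytic subunit is COPS5, removes NEDD8 from them again, while SENP8 trims the NEDD8 precursor. Cullin ligases are known for roles in male germ cells, such as the CUL3 ligase with KLHL10 in spermatids.

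The library labelled calf 3 went against its label, and the levels, fold changes and counts that it moved are therefore also given without it. The 7 brain markers examined (MBP, MOBP, MOG, GFAP, SNAP25, SYT1 and NEFL) had a summed FPKM of 8130.1 in that library. The other calves had 10.4 and 10.5 and the bulls 6.02 to 11.5, and 7 of 7 were higher in calf 3 than in both other calves. The Leydig cell markers summed to 0.502 in calf 3, with CYP11A1 and CYP17A1 listed at 0, against 1141 to 1406 in the other calves and 1465 to 2738 in bulls. The Sertoli cell markers FSHR, WT1 and GATA4 were also listed at 0 in calf 3. Of the 10 genes on the Sertoli cell list, 7 were lower in calf 3 than in both other calves and 3 were higher. That list summed to 474 in calf 3, 1502 to 1805 in the other calves and 199 to 235 in bulls. CLDN11 alone, which is also a gene of myelin, made up 429 of the sum in calf 3, whereas AMH was at 0.340 and INHA at 0.766 there.

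NEDD8 (ENSBTAG00000038842, chromosome 10, 20936646 to 20945396) was high in calves and close to 0 in bulls. Its FPKM was 39.0, 49.96 and 43.1 in the calves. The bulls had 0.341, 0.267 and 0.352. The groups lay far apart, and calf 3 lay between the other two calves although its marker genes differed from theirs. In bulk testis, fewer cells of a type and less RNA per cell cannot be told apart. The means were 44.0 ± 5.55 in calves and 0.320 ± 0.0460 in bulls (SD, n = 3 each), a ratio of 138. On the scale of log2(FPKM + 1), which draws changes of low values toward 0, the log2 fold change (bull minus calf) was −5.08, and −5.10 without calf 3. NEDD8 was chosen by this log2 fold change, the third lowest of the 18115 genes tested, so its values are a description and were not tested. The enzymes were chosen for their place in the pathway of NEDD8. The 6 rows are shown by library in the plot of levels.

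**Figure D1:**
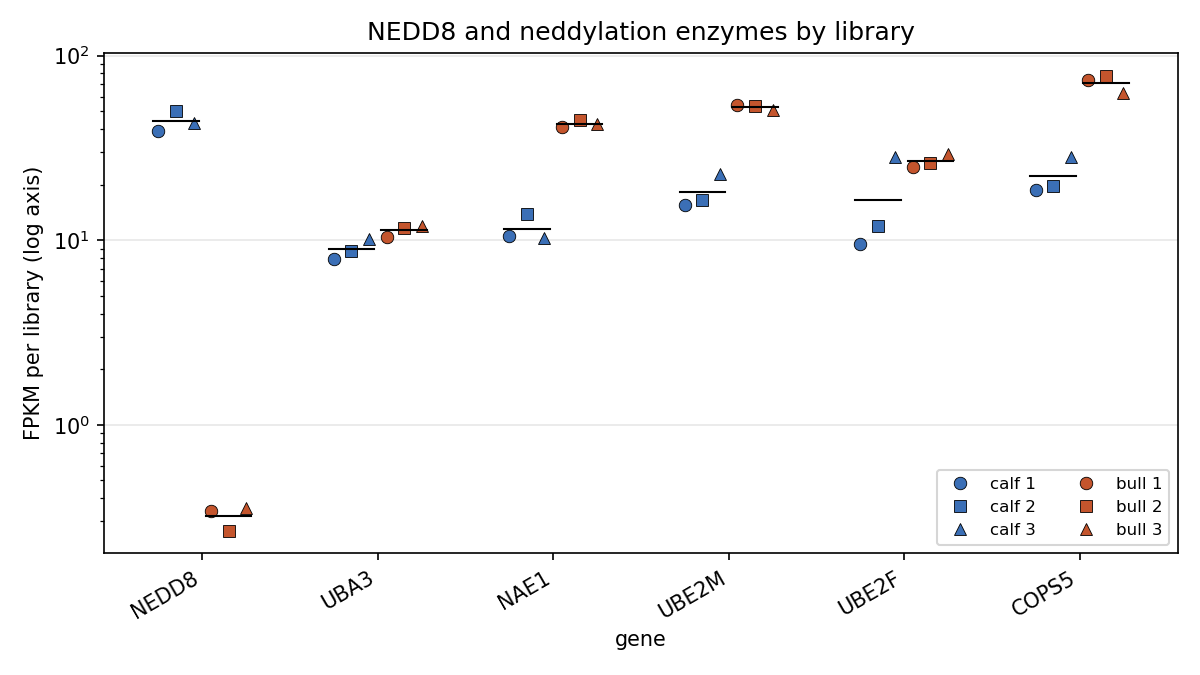
FPKM (log axis) of the 6 genes with a row, 1 point per library (calves blue, bulls orange), with a black line at each group mean. NEDD8 lies at 39.0 to 50.0 in calves and 0.267 to 0.352 in bulls, whereas the bulls lie above all calves for UBA3, NAE1, UBE2M and COPS5 and overlap calf 3 for UBE2F.

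The row of NEDD8 lies inside a longer transcript that was assembled from the reads and filed under another gene. This transcript (TCONS_00022558, chromosome 10, 20926528 to 20954996) is filed under TINF2, a gene of the telomere-protecting shelterin complex, and spans NEDD8, GMPR2, MDP1 and CHMP4A whole and most of the row of TSSK4. Its FPKM was 0.952, 0.893 and 1.94 in the calves and 9.68, 8.06 and 10.7 in the bulls. It was thus high in the libraries in which NEDD8 was low. NEDD8-201 (ENSBTAT00000003514) is the single transcript filed under NEDD8, and its values equal those of the gene row.

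The table gives neither the exons nor the strand of the spanning transcript, so whether it carries exons of NEDD8 is not known from it. If all of its FPKM were added to that of NEDD8, the sums would be 39.9, 50.8 and 45.0 in the calves and 10.02, 8.32 and 11.1 in the bulls. The ratio of means would then be 4.62 in place of 138, and the log2 fold change −2.10. In these sums the bulls lie below all calves. FPKM is scaled by the length of each model, however, and the length of the spanning transcript without introns is not given. The sums therefore set no limit on what fragments assigned to it could add to NEDD8. How fragments were assigned between these overlapping models, and its part in the low FPKM of NEDD8, was not tested.

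The other rows under the spanning transcript did not move together. GMPR2, a GMP reductase, had an FPKM of 13.8, 14.998 and 11.8 in calves and 18.7, 15.8 and 17.1 in bulls, and was not called (log2 fold change 0.33, standard error or SE 0.16, adjusted p = 0.127, limma). Without calf 3 it was 0.24. MDP1, a phosphatase gene and the next row beyond NEDD8, lay at 6.73, 6.62 and 9.69 in calves and 3.76, 4.63 and 2.46 in bulls. Its log2 fold change of −0.92 (SE 0.26, adjusted p = 0.0247) was too small for a call, but MDP1 was called lower in 5 of the alternatives: without calf 2 (−1.01), without bull 2 (−1.08), with a pseudocount of 0.1 (−1.09), after quantile normalization (−1.54) and with median-of-ratios scaling (−1.05). Without calf 3 it was −0.76. The next 2 rows were named after their values had been seen. CHMP4A, an ESCRT-III subunit, fell from 8.63, 13.3 and 12.5 in calves to 1.46, 1.18 and 1.68 in bulls (−2.34, SE 0.22, adjusted p = 0.000277). TSSK4, a testis-specific serine kinase, rose from 0.491, 0.594 and 0.557 to 55.9, 57.1 and 58.7 (5.23, SE 0.14, adjusted p = 3.98e-06). The row of TINF2 itself, which holds the spanning transcript and TINF2-201, rose from 3.77, 4.45 and 5.38 to 16.3, 13.9 and 13.9 (1.51, SE 0.18, adjusted p = 0.000725). The spanning transcript is counted in that row, at 0.893 to 1.94 in calves and 8.06 to 10.7 in bulls. The rise of the row is thus not a result apart from that transcript. Without calf 3, the log2 fold changes of CHMP4A, TSSK4 and TINF2 were −2.27, 5.24 and 1.62, all called. After quantile normalization, TINF2 was at 0.99, too small for a call.

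**Figure D2:**
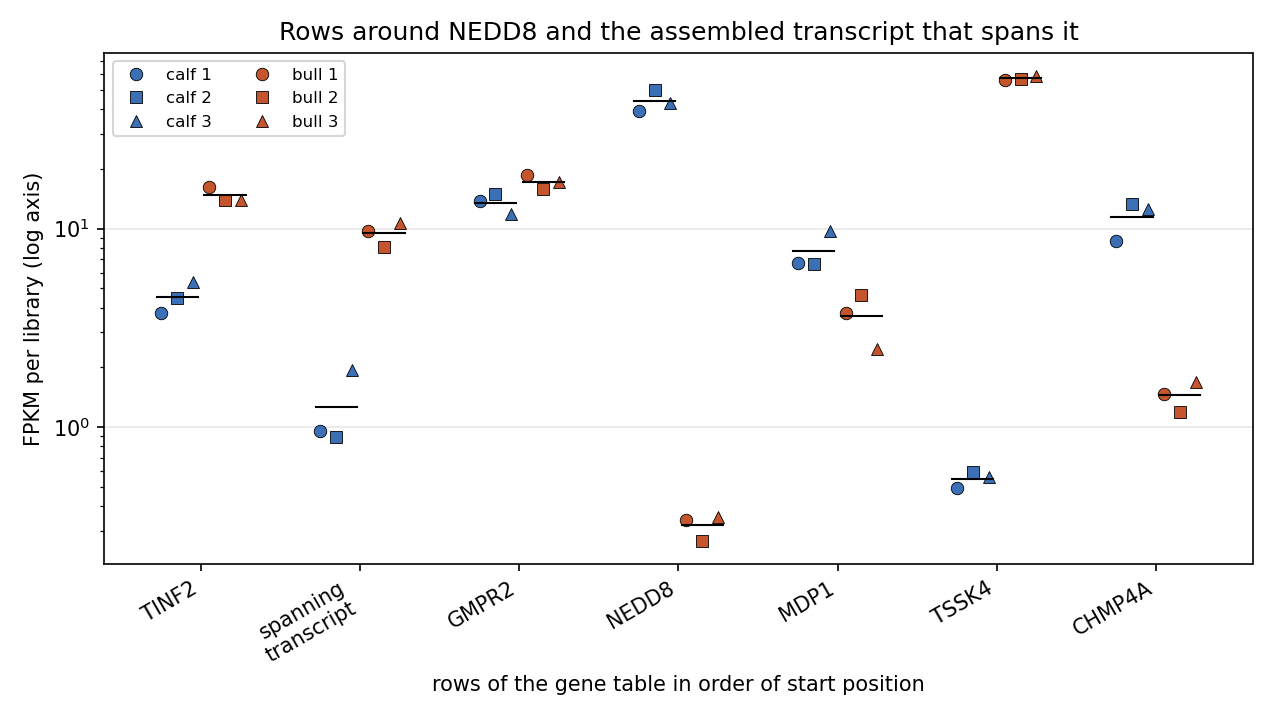
FPKM (log axis) per library of the rows that overlap the assembled transcript spanning NEDD8, in order of their start, with that transcript itself (calves blue, bulls orange, black lines at group means). NEDD8 and CHMP4A are lower in bulls, while TSSK4 and the spanning transcript (0.893 to 1.94 in calves, 8.06 to 10.7 in bulls) are higher. TINF2, whose row includes that transcript, is higher too.

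Many rows lie under such a transcript. Leaving NEDD8 out, 2132 of the genes tested (11.8%) lay whole inside an assembled transcript filed under another gene. Of these, 7.36% were called lower in bulls and 44.2% higher, against 9.90% and 34.6% of the other genes tested. Such transcripts were counted whatever their level or change between the groups, so these shares do not test fragment assignment at NEDD8.

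None of the enzymes had a low level in bulls like that of NEDD8. They were tested with limma over all genes tested, with Benjamini-Hochberg adjustment, and a gene was called where its adjusted p was under 0.05 and its log2 fold change 1 or more in size. NAE1, UBE2M and COPS5 were called higher in bulls, UBA3 and UBE2F were not called, and none of the 5 was called lower. Over all genes tested, 35.7% were called higher and 9.61% lower in bulls, and the median log2 fold change was 0.43. With 5 genes, these counts do not set the enzymes apart from that background. All bulls lay above all calves for 4 of the 5 enzymes, where 46.1% of all genes tested had the bulls higher without overlap and 21.3% had them lower. Without calf 3, 4 of the 5 enzymes were called higher and 0 lower, beside 37.9% and 13.6% of all genes. After quantile normalization, 1 of the 5, NAE1, was called higher and 0 lower, beside 21.1% and 25.1% of all genes.

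Of the activating enzyme, NAE1 rose and UBA3 did not pass the test. NAE1 (ENSBTAG00000010132, chromosome 18, 34516460 to 34540770), the regulatory subunit, lay at 10.5, 13.9 and 10.3 FPKM in calves and at 41.03, 44.95 and 42.5 in bulls. All bulls lay well above all calves, at 42.8 ± 1.99 against 11.6 ± 1.998 (SD, n = 3). The log2 fold change was 1.81 (SE 0.17, adjusted p = 0.000238), and 1.74 without calf 3. It stayed called in each alternative computed, between 1.14 and 2.03.

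UBA3 (ENSBTAG00000015556, chromosome 22, 32436511 to 32496652), the catalytic subunit that binds NEDD8, lay at 7.91, 8.75 and 10.1 in calves and 10.4, 11.6 and 12.0 in bulls. All bulls lay above all calves, but the lowest bull was close to the highest calf. The log2 fold change was 0.32 (95% interval −0.08 to 0.71, adjusted p = 0.142), and 0.40 without calf 3 (adjusted p = 0.0248, the fold change too small for a call). After quantile normalization, which shifted the median of all genes to −0.26, it was −0.19.

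The balance of the subunits within each library was lower for UBA3 in every bull. The log2 ratio of UBA3 to NAE1, which the scaling of a library hardly touches, was −0.37, −0.61 and −0.03 in calves and −1.88, −1.87 and −1.74 in bulls. The groups did not overlap, and the means differed by −1.496 (bull minus calf; p = 0.1 in a two-sided exact permutation test, and 3 animals against 3 allow no smaller p). Without calf 3 the difference was −1.34. By FPKM, NAE1 was thus close to UBA3 in calves (11.6 and 8.92 on average) and far above it in bulls (42.8 and 11.3).

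The transcripts of both subunits were unevenly used. In NAE1, NAE1-201 (ENSBTAT00000013367) rose from 7.60, 11.3 and 6.26 to 36.9, 42.2 and 37.4, a log2 fold change of 2.12 (adjusted p = 0.000558), or 1.95 without calf 3. It held 71.5% ± 10.4 of the summed transcripts in calves and 90.6% ± 2.96 in bulls (SD, n = 3 each), with calf 3 the lowest library at 60.7%. The other 3 NAE1 transcripts were assembled from the reads and lay between 0.262 and 2.49 in every library. The transcripts CA7-OT1 and CA7-OT2, filed under CA7, span NAE1 whole and lay at 0.201 or less in every library. In UBA3, the assembled transcript TCONS_00194786 held 85.7% ± 2.80 in calves and 91.9% ± 1.76 in bulls (SD, n = 3 each), and no Ensembl transcript of UBA3 exceeded an FPKM of 0.715. That transcript ends inside the row of TMF1, which lay at 13.4 to 23.3 in calves and 33.7 to 38.7 in bulls. The log2 fold change of the UBA3 transcript was 0.40 (adjusted p = 0.102), or 0.51 without calf 3. The row of UBA3 also overlaps that of ARL6IP5, which was not called (−0.15, adjusted p = 0.472, and −0.08 without calf 3).

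Of the conjugating enzymes, UBE2M rose and UBE2F depended on calf 3. UBE2M (ENSBTAG00000012744, chromosome 18, 65779277 to 65782460), which serves most cullins, had an FPKM of 15.5, 16.5 and 22.9 in calves and 54.3, 53.6 and 50.7 in bulls. The groups lay apart with calf 3 nearest to the bulls, and the log2 fold change was 1.499 (SE 0.19, adjusted p = 0.000864), or 1.66 without calf 3. It was 0.76 once quantile-normalized, too small for a call. UBE2M-202 (ENSBTAT00000016937) held 97.5% ± 0.784 of the summed transcripts in calves and 99.3% ± 0.214 in bulls (SD, n = 3). An assembled row without a symbol spans UBE2M and lay between 3.18 and 4.57 in all libraries.

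UBE2F (ENSBTAG00000026114, chromosome 3, 117354167 to 117410163), which serves the CUL5 branch, lay at 9.54, 11.9 and 28.2 FPKM in calves and at 24.9, 26.3 and 29.2 in bulls. Calf 3 thus lay within the range of the bulls, apart from the other calves, and the part of its brain markers in this was not tested. The log2 fold change was 0.81 (95% interval −0.15 to 1.77, adjusted p = 0.128), and UBE2F was called higher without calf 3 (1.25, adjusted p = 0.000286).

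The row of UBE2F adds transcripts of more than one kind. UBE2F-201 (ENSBTAT00000037020) lay at 8.51, 10.6 and 26.0 in calves and 16.9, 18.2 and 18.5 in bulls, so calf 3 was above all bulls. Its log2 fold change was 0.39 (adjusted p = 0.454), and 0.84 without calf 3 (adjusted p = 0.00275, the fold change too small for a call). A further 16 assembled transcripts, whose names in the table add AS to UBE2F, summed to 0.919, 1.18 and 1.65 in calves and 6.25, 6.42 and 9.37 in bulls. UBE2F-201 therefore held 90.2% ± 1.68 of the summed transcripts in calves and 66.7% ± 3.08 in bulls (SD, n = 3 each). The assembled transcript TCONS_00265180 was called higher in bulls (1.07, adjusted p = 0.00333), from at most 0.574 in calves to 1.36 to 1.81. Its log2 fold change was 0.099 after quantile normalization and not called (adjusted p = 0.710), and 2.49 with a pseudocount of 0.1. Without calf 1 or calf 2 it was 0.99 or 0.98, too small for a call. Without calf 3 it was 1.24 (adjusted p = 0.000756) and called.

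The balance of the conjugating enzymes lay further toward UBE2M in every bull. The log2 ratio of UBE2M to UBE2F was 0.64, 0.45 and −0.29 in calves and 1.09, 0.999 and 0.77 in bulls. The groups did not overlap, with a mean difference of 0.69 (p = 0.1 in the same exact permutation test). Without calf 3, the lowest library, the difference was 0.41. Set against UBE2F-201 alone, a comparison added after the transcripts had been seen, it was 1.11.

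**Figure D3:**
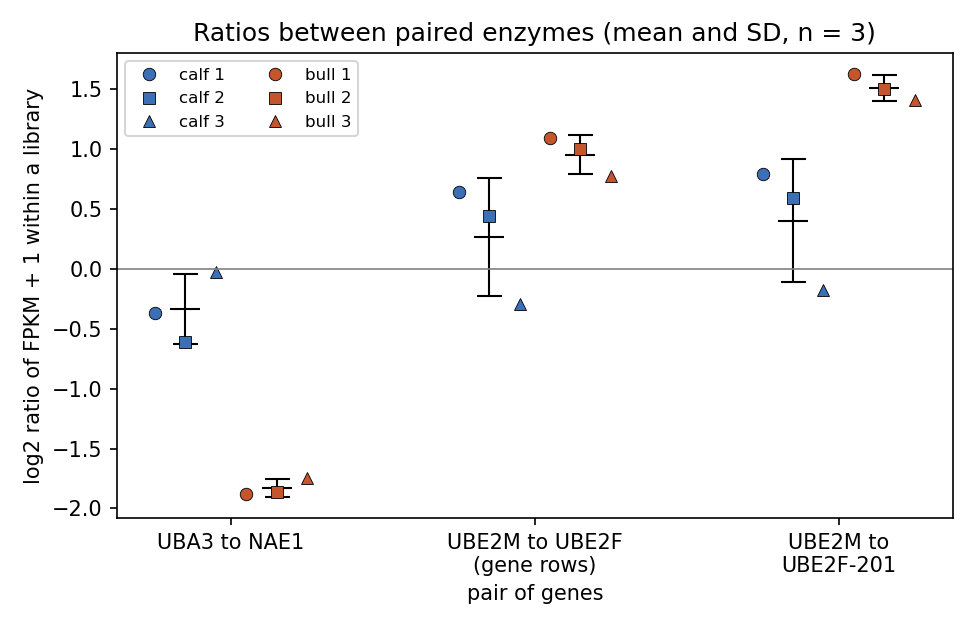
Within-library log2 ratios of FPKM + 1 between paired enzymes, 1 point per library (calves blue, bulls orange), with the mean and SD of each group (n = 3). The ratio of UBA3 to NAE1 lies between −0.61 and −0.03 in calves and between −1.88 and −1.74 in bulls, and the ratios of UBE2M to UBE2F are higher in bulls.

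On the side of removal, COPS5 rose. COPS5 (ENSBTAG00000002784, chromosome 14, 31193319 to 31212995), the metalloprotease of the COP9 signalosome, had an FPKM of 18.6, 19.7 and 28.2 in calves and 73.5, 77.8 and 62.9 in bulls. The groups lay apart, with calf 3 the highest calf. The log2 fold change was 1.66 (SE 0.21, adjusted p = 0.000885), 1.84 without calf 3 and, too small for a call, 0.89 with quantile-normalized values. COPS5 has a single transcript and overlaps no other row of the table. Over the transcripts of the 5 enzymes, 8 of 31 passed the filter and 4 were called higher in bulls, with none lower, where 34.8% of all transcripts tested were called higher and 9.37% lower.

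NEDD8 went from the highest mean level in calves to the lowest in bulls. In calves, the mean FPKM ran from NEDD8 (44.0) through COPS5 (22.2), UBE2M (18.3), UBE2F (16.5) and NAE1 (11.6) to UBA3 (8.92). The ranges of neighbours in that order overlapped from COPS5 to NAE1, while NEDD8 stood clear above and UBA3 just below. UBE2F stood above NAE1 through calf 3 alone: without it the means were 10.7 for UBE2F and 12.2 for NAE1, and the enzymes had the same order in calves as in bulls. In bulls, the order was COPS5 (71.4), UBE2M (52.8), NAE1 (42.8), UBE2F (26.8), UBA3 (11.3) and NEDD8 (0.320), and no ranges of neighbours overlapped.

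The wider pathway held genes that rose steeply and others that did not pass the test. The list had 32 genes, all of them in the table and tested. Of these, 12 were called higher in bulls (37.5%), close to the 35.7% over all genes. Called lower was 1, where 9.61% of all genes were called lower. The median log2 fold change of the list was 0.60. Without calf 3, the counts were 12 and 1, with RNF7 called and CUL4A not, beside 37.9% and 13.6% of all genes. After quantile normalization they were 5 and 2, beside 21.1% and 25.1% of all genes. The list median was then −0.07, beside −0.26 over all genes. The genes then called were DCUN1D1, ARIH2, CUL1, CUL3 and COPS3, higher, and CUL7 and DCUN1D2, lower, so the other calls of higher genes given for this list did not hold under that scaling.

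DCUN1D1, a DCN1-like protein that helps to pass NEDD8 from UBE2M to cullins, changed most. Its FPKM was 7.65, 7.76 and 7.84 in calves and 197, 167 and 172 in bulls, with groups far apart and calf 3 level with the other calves. The log2 fold change was 4.36 (SE 0.14, adjusted p = 5.74e-06). DCUN1D3 also rose (1.47, adjusted p = 0.000866), but was at 0.89 after quantile normalization, too small for a call. The log2 fold changes of DCUN1D2, DCUN1D4 and DCUN1D5, which were not called, were −0.53, 0.71 and 0.32.

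Among the 8 cullins, the scaffolds to which NEDD8 is joined, CUL1, CUL3 and CUL4A were called higher and CUL7 lower. With 8 genes, these counts do not set the cullins apart from the 35.7% higher and 9.61% lower over all genes. CUL1 rose from 19.5, 25.4 and 20.9 to 151, 152 and 136 (2.69, SE 0.16, adjusted p = 5.13e-05). CUL3 rose from 35.1, 41.9 and 23.9 to 162, 163 and 154 (2.25, SE 0.23, adjusted p = 0.000405, and 2.03 without calf 3). Both CUL1 and CUL3 had all bulls far above all calves. CUL4A rose by 1.07 (adjusted p = 0.00914), but by 0.85 without calf 3, too small for a call. CUL7 fell from 32.8, 31.7 and 15.2 to 9.28, 10.1 and 9.51 (−1.30, SE 0.31, adjusted p = 0.0132). Without calf 3, the lowest calf, CUL7 was at −1.65 (adjusted p = 3.10e-05) and called. The call of CUL7 was lost without bull 1 (−1.28, adjusted p = 0.0524) and without bull 3 (−1.29, adjusted p = 0.0505), at nearly the same fold change, which left 0 genes of the list called lower. CUL2, CUL4B, CUL5 and CUL9 lay between −0.16 and 0.41 and were not called.

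The ring-between-ring ligases ARIH1 and ARIH2, which work with neddylated cullins, both rose, whereas the RING partners did not pass the test. ARIH2 went from 13.7, 11.7 and 19.9 in calves to 153, 145 and 126 in bulls (3.17, SE 0.23, adjusted p = 9.30e-05), and ARIH1 had a log2 fold change of 1.41 (adjusted p = 0.000604), which was 0.66 after quantile normalization, too small for a call. RBX1, the partner of most cullins, had 31.5, 31.7 and 24.5 in calves and 34.3, 28.3 and 43.2 in bulls (0.25, 95% interval −0.27 to 0.77, adjusted p = 0.349). RNF7, the partner of CUL5, had 9.95, 10.99 and 28.3 in calves and 30.6, 23.8 and 23.0 in bulls. Like UBE2F, RNF7 was not called with all libraries (0.76, adjusted p = 0.159) and was called higher without calf 3 (1.21, adjusted p = 0.000562).

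The COP9 signalosome did not move as a block. Of the 9 subunits beside COPS5, GPS1, COPS3 and COPS4 were called higher in bulls (1.38, 1.80 and 1.52, with adjusted p = 0.00745, 0.000308 and 0.000426), and none was called lower. With 9 genes, this count is close to the 35.7% over all genes. After quantile normalization COPS3 was called (1.04), while GPS1 (0.82) and COPS4 (0.75) were too small for a call. COPS8 was at 0.78 (adjusted p = 0.0122), too small for a call. The other 5 lay between −0.27 (COPS2, adjusted p = 0.345) and 0.61 (COPS7A, adjusted p = 0.0825). COPS9, the smallest subunit, had an FPKM of 70.2, 61.2 and 101 in calves and 105, 122 and 117 in bulls (0.59, adjusted p = 0.0716). Of the exchange factors, CAND1 was at 0.14 and CAND2 at −0.44, neither called. Without calf 3, CAND2 was at −0.73 (adjusted p = 0.00266), too small for a call. UCHL3, a hydrolase that can process NEDD8, and NUB1, which binds NEDD8 and lowers its conjugates, were called higher (1.14 and 1.32, with adjusted p = 0.00776 and 0.00518). Without calf 3 they were at 1.37 and 1.07, both called. After quantile normalization they were at 0.50 and 0.55 and not called (adjusted p = 0.112 and 0.134).

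**Figure D4:**
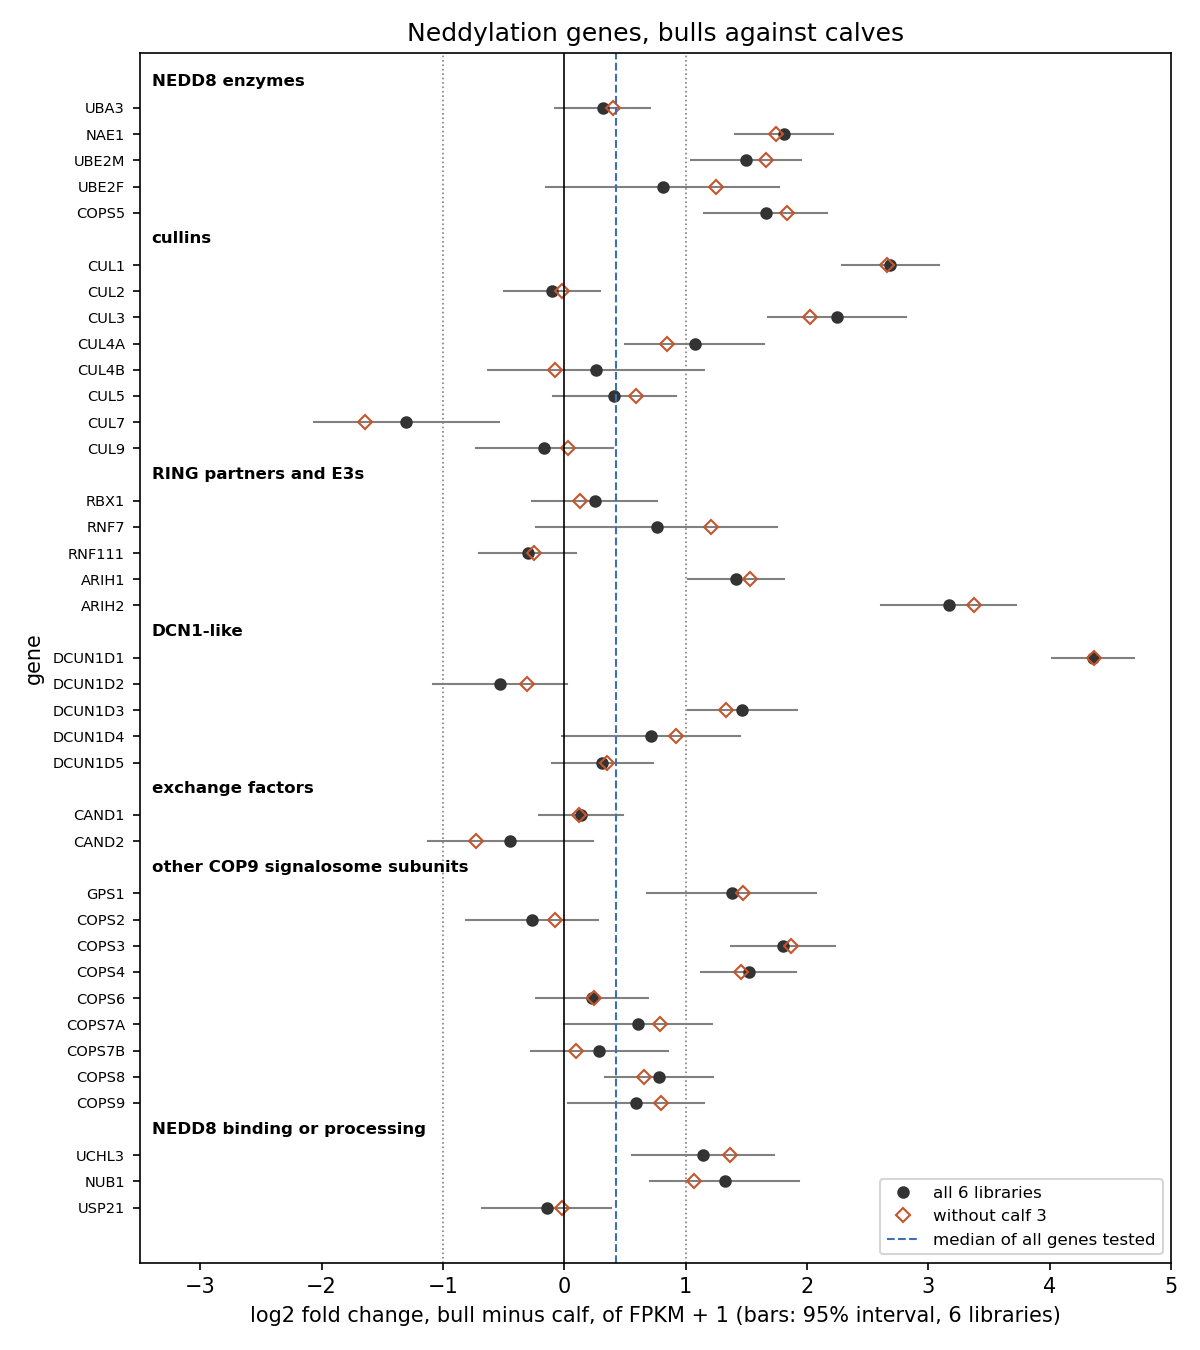
Log2 fold change (bull minus calf, of FPKM + 1) of the 5 neddylation enzymes and the 32 other genes of the pathway, with the 95% interval of the fit on 6 libraries (black points, grey bars) and the value without calf 3 (open diamonds). DCUN1D1 (4.36), ARIH2 (3.17), CUL1 (2.69) and CUL3 (2.25) lie farthest above the dashed median of all genes (0.43), and CUL7 (−1.30) lies lowest.

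Genes of ubiquitin and of other ubiquitin-like modifiers served as a comparison. Of 22 genes, all tested, 4 were called higher in bulls and 1 lower, with a median log2 fold change of −0.18. Over all genes tested, 35.7% were called higher and 9.61% lower, with a median of 0.43. Without calf 3, the list had 4 called higher and 3 lower, beside 37.9% and 13.6% of all genes. After quantile normalization it had 2 and 6, beside 21.1% and 25.1% of all genes. Among the modifiers of this list other than the ubiquitin genes, none of the 8 was called with all libraries, and their log2 fold changes lay between −0.95 (URM1) and 0.55 (SUMO2).

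The ubiquitin genes did not move together. UBB rose (1.99, adjusted p = 0.00573), and was at 1.81 without calf 3. RPS27A lay at 1610, 1519 and 273 in calves and at 255 to 297 in bulls, and was called lower without calf 3 (−2.47, adjusted p = 1.18e-05) and after quantile normalization (−1.47), though not with all libraries as deposited (−1.63, adjusted p = 0.105). These genes share near-identical ubiquitin repeats, between which reads cannot always be assigned. Among the activating enzymes of the other modifiers, ATG7 (2.12, adjusted p = 0.000153), SAE1 (1.40, adjusted p = 0.0167) and UBA2 (1.20, adjusted p = 0.0121) were called higher. Without calf 3, ATG7 was at 2.23 and SAE1 at 1.01, both called. UBA1, which activates ubiquitin, was called lower (−1.09, adjusted p = 0.0274) but not without calf 3 (−0.75, adjusted p = 0.00342), in which it was highest at 37.6. UBA2 was at 0.91 without calf 3, too small for a call. After quantile normalization SAE1 (0.63) and UBA2 (0.42) were not called. SAE1 was not called without bull 1, bull 2 or bull 3 either (adjusted p = 0.0643, 0.0568 and 0.0562), at log2 fold changes of 1.36, 1.42 and 1.43. UBA1 was not called without them either (adjusted p = 0.0932, 0.0933 and 0.0592).

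Genes of meiotic and postmeiotic germ cells were far lower in calves than in bulls, and only those of spermatids were nearly absent in calves. The lists of spermatocytes (6 of 6 genes), round spermatids (5 of 5) and elongating spermatids (7 of 7) had all bulls above all calves, as had 46.1% of all genes tested. Their summed FPKM rose from at most 21.7, 3.13 and 4.13 in calves to at least 193, 194 and 13732 in bulls. Their part in the values of the neddylation genes was not tested.

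The genes with a symbol whose pattern was most like that of NEDD8 over the 6 libraries, by Pearson correlation of log2(FPKM + 1), were FGD1, MPND, EBF4, RASSF5 and SCARA3 (r = 0.999 for each). Their FPKM in calves was at most 8.74, far below that of NEDD8, while in bulls the mean of each but FGD1 was above that of NEDD8. In total 146 genes reached a correlation of at least 0.99, since a large gap between the groups fixes most of it.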

How the data were processed

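After removal of low-quality reads and, with Bowtie2, of ribosomal reads, the authors aligned the remainder by TopHat2, and StringTie served for transcript assembly. The libraries were strand-specific. Cuffdiff and Ballgown are named for circular RNAs, but which tool made the FPKM of these gene tables, and whether it used strand, is not given in the sources used here. The deposited tables hold FPKM per gene and per transcript. The methods name UMD 3.1.1, but 99.4% of 16434 symbols overlapped their RefSeq locus on ARS-UCD2.0, so positions are those of the tables on an ARS-UCD assembly. Values were transformed to log2(FPKM + 1), and features reaching an FPKM of 1 in 3 or more libraries were tested (18115 genes, 23212 transcripts). The groups were compared with limma 3.58.1 in R 4.3.3 (empirical Bayes trend, two-sided, Benjamini-Hochberg). The procedure was also run on simulated data with normal noise and no deviating library. That run does not show how calls behave with a library like calf 3. Calls required an adjusted p under 0.05 together with a change of 1 or more on the log2 scale. Within-library ratios were compared by exact permutation. Figures were drawn with matplotlib 3.10.9.

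Members and lists were chosen with earlier results of these data known. Named were all members with their main transcripts, rows with a symbol that overlap them or lie next to NEDD8, and the 5 genes most like NEDD8. Also named were up to 4 called genes with the largest change in each direction of the pathway list and of the list of other modifiers. Further genes of those lists, CHMP4A and TSSK4 were named after their values were seen. The planned ratio of COPS5 to SENP8 could not be computed, as SENP8 has no row. A few genes of the marker and modifier lists are not reported here. No sequences are shown.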

Additional observations from a re-analysis of the deposited data

How the results depend on the processing

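Quantile normalization shifted the median of all genes from 0.43 to −0.26. It gave 3827 genes called higher and 4538 lower in place of 6474 and 1741, 1 enzyme and 1 enzyme transcript called higher, 5 pathway genes higher and 2 lower, and 2 other modifier genes higher and 6 lower. After quantile normalization, some small positive log2 fold changes were negative, among them those of UBA3 (−0.19), GMPR2 (−0.28), UBE2F-201 (−0.26), TCONS_00194786 (−0.18) and TCONS_00136694 (−0.51). The summed FPKM was 1066184 and 1098715 in calves 1 and 2, 587066 in calf 3 and 732130 to 776839 in bulls. Rescaling every library to the same sum gave a median of 0.63, with 1151 genes and 0 other modifier genes called lower. A filter at an FPKM of 5, which tests fewer genes, gave fewer calls: 4028 were called higher and 1028 lower. Other modifier genes called lower numbered 2 with a pseudocount of 0.1, 3 with median-of-ratios size factors and 3 with array weights. For TCONS_00136695 (−0.06), the log2 fold change was 0.035 after rescaling, 0.044 with array weights and between −0.11 and 0.056 with 1 library left out. Apart from the filter, the cause of these differences was not tested. With each library left out in turn, pathway genes called lower ranged from 0 to 1 and other modifier genes called lower from 0 to 3. UBE2F was called higher with array weights (1.23) and without calf 3 (1.25). For NEDD8, the log2 fold change was −6.71 with a pseudocount of 0.1, −5.67 after quantile normalization and −2.10 with the spanning transcript added.

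Calves and bulls share the replicate numbers 1 to 3 in their titles, and whether these numbers mean anything shared is not known. Deviations of same-numbered libraries correlated at only 0.028, 0.025 and 0.034 over genes, although each library correlated best with its own number. With 3 libraries per group, such small values cannot settle whether the numbers mark pairs. A fit with the replicate number as a block called 3 enzymes, 12 pathway genes and 4 other modifier genes higher, and the exact p of both ratios within pairs was 0.25, the smallest for 3 pairs. Reads per library are given in the paper, but counts per gene are not. The counting error of values near 0, such as those of NEDD8 in bulls, was therefore not computed.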
